A study of Mus musculus with 8 samples.

Results

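Mpzl2, Khdc1c, Gm42031, Slc41a2, Col6a4 and Ccnb1ip1 had raw counts near 0 in resting regulatory T cells of one genotype and clear counts in both libraries of the other. They are 6 of the 27594 genes counted, and they were selected on these rTreg counts, so their genotype difference in rTreg cells is given as a description without a test. Mpzl2, Khdc1c, Gm42031 and Slc41a2 were found in Foxp1-deficient cells, and Col6a4 and Ccnb1ip1 in WT cells. All 6 kept that direction in activated regulatory T cells. The selection did not require those counts, but they may have been seen in it.

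RNA was sequenced from Treg cells of C57BL/6 mice aged 6 to 8 weeks, taken from the spleen and peripheral lymph nodes. WT cells came from Foxp3-YFP-Cre mice and Foxp1 cKO cells from Foxp1fl/fl Foxp3-YFP-Cre mice, so both genotypes carry the Cre and YFP knock-in at Foxp3, and the recombinase acts in cells that express Foxp3. CD4+YFP+ cells were sorted as resting Treg (rTreg, CD44lowCD62Lhigh) or activated Treg (aTreg, CD44highCD62Llow). Each of the 4 groups had 2 libraries, and nothing in the labels says whether these, or rTreg and aTreg libraries of one number, came from separate animals, so p-values measure only the spread between these samples.

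Library totals ranged from 6373170 to 15268623 counts, with a median of 12327710. The Treg markers summed to between 2785 and 4310 CPM (counts scaled to library size) in every library. Foxp1, counted over the whole gene, had 353 and 383 CPM in WT rTreg and 341 and 337 CPM in Foxp1 cKO rTreg libraries (log2 fold change −0.12, adjusted p = 0.460, edgeR), so its total leaves the rTreg labels unchecked. In aTreg libraries it had 234 and 230 CPM in WT and 126 and 101 CPM in Foxp1 cKO cells (log2 fold change −1.03, adjusted p = 0.00194, edgeR). Xist, the RNA of the inactive X chromosome, had 0 to 3 counts in the 4 libraries numbered 1 and 15098 to 21822 in those numbered 2. By Xist, the 2 libraries of each group did not come from the same animals, since only those numbered 2 hold cells with an inactive X chromosome. The replicate number, a block in the tests below, cannot be told apart from this difference.

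Treg cells are CD4+ T cells that restrain immune responses under the transcription factor Foxp3, and Foxp1 is a forkhead factor of the same family that binds related DNA letters. Resting Treg cells circulate in a quiescent, naive-like state, and activated Treg cells have met antigen. Mpzl2 encodes an immunoglobulin-domain adhesion protein of epithelia and thymus, Khdc1c belongs to a KH-domain family known from oocytes and early embryos, and Slc41a2 encodes a magnesium transporter. Col6a4 encodes a chain of collagen VI, a matrix protein, Ccnb1ip1 encodes a RING-domain protein needed for meiotic crossovers that binds B-type cyclins, and Gm42031 is annotated as a long intergenic non-coding RNA.

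In GENCODE M21 (GRCm38), Mpzl2 lies on the plus strand at chr9:45039799-45054015 and Col6a4 on the minus strand of the same chromosome at chr9:105989454-106096783, with 60.9 Mb between them. Khdc1c lies at chr1:21368331-21370845 on the plus strand. The other three are on the minus strand, Gm42031 at chr8:85125872-85132289, Slc41a2 at chr10:83230848-83337882 and Ccnb1ip1 at chr14:50789248-50807732. None lies on the chromosome of Foxp1, which is at chr6:98925338-99522721. The merged exons in this annotation are 7 for Mpzl2, 3 for Khdc1c, 2 for Gm42031, 14 for Slc41a2, 40 for Col6a4 and 6 for Ccnb1ip1. Their summed length equals the length behind the deposited FPKM for each of these genes except Ccnb1ip1.

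Khdc1c has a close copy, Khdc1a, upstream of it on the same chromosome. Their coding sequences, both of 501 bases, are identical at 500 positions (99.8%), and their whole transcripts at 98.1% of 1934 aligned bases, with an unbroken identical run of 421 bases. The coding bases 386 to 446 around the single difference, T416C from Khdc1a to Khdc1c with positions counted from the first base of the start codon, are printed here because they show how few letters tell reads of the copies apart, and the capital marks the differing base.
Khdc1a: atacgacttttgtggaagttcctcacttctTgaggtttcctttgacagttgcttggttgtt
Khdc1c: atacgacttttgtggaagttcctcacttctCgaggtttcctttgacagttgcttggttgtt
Reads inside identical stretches cannot be assigned to one copy, so the counts of Khdc1c and of Khdc1a are uncertain and rest on the reads that the counting could place.

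The RefSeq promoter table (GRCm38.p6) held 4 of the 6 genes, Gm42031, Col6a4, Slc41a2 and Ccnb1ip1. The 250 bases before the start were searched on both strands for TGTTT, the core letters of forkhead sites, and for the longer TGTTTAC, which contains it. Col6a4 held TGTTT 2 times, at −229 on the gene's strand and at −154 on the other, Slc41a2 1 time at −232, Ccnb1ip1 1 time at −78, and Gm42031 not at all. The short motif occurs in 35.0% of the 12366 promoters of tested genes and in 46.4% of all 32851, so 3 of 4 is a description of these windows. TGTTTAC occurs in none of the 4 and in 2.16% of promoters of tested genes. The windows of Col6a4 (chr9:106096692-106096941, minus strand) and Gm42031 (chr8:85131815-85132064, minus strand) are shown because these are the genes with an entry that had at most 1 count in every library of their silent genotype; each is 5′ to 3′ on the gene's strand, and capitals mark TGTTT or its complement AAACA.
Col6a4: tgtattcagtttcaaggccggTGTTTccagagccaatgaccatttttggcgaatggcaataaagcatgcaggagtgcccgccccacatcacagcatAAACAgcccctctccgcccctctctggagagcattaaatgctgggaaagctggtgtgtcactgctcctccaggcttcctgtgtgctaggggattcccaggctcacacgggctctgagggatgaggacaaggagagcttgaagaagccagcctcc
Gm42031: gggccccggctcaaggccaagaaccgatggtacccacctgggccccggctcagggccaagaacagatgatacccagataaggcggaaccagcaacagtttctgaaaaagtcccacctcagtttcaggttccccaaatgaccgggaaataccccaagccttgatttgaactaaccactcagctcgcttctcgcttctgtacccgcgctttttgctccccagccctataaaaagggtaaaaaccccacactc
The Gm42031 and Ccnb1ip1 windows lie wholly inside the span that GENCODE M21 gives these genes, since RefSeq places their starts further in. For the same reason the Col6a4 and Slc41a2 windows lie partly inside the spans of their genes. No binding of Foxp1 was measured in these libraries.

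Mpzl2 had the highest level of the 6 genes in rTreg cells. It was at 0 counts in both WT rTreg libraries and had 509 and 1099 counts in the Foxp1 cKO rTreg libraries, or 80.1 ± 1.21 CPM (mean ± SD, n = 2). In aTreg cells it had 1 and 0 counts in WT and 93 and 79 in Foxp1 cKO libraries, or 6.73 ± 1.49 CPM in the latter. The genotypes did not overlap in either subset, and the Foxp1 cKO rTreg replicates lay within 1.02 times of each other in CPM. Against a floor of 3 counts set for the WT group in place of 0, Mpzl2 was 628-fold higher in Foxp1 cKO rTreg cells. Such floor ratios leave out the counting error of the higher genotype, so they are no 95% limits. In aTreg cells the ratio was 164, with a 95% counting interval of 29.1 to 6534 (intervals cover counting error only).

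Khdc1c had far fewer counts but the same shape. Its counts were 1 and 1 in WT rTreg and 42 and 99 in Foxp1 cKO rTreg libraries, the latter 6.91 ± 0.325 CPM (n = 2). In aTreg libraries they were 0 and 3 in WT and 14 and 22 in Foxp1 cKO, the latter 1.38 ± 0.288 CPM. The WT libraries were all below every Foxp1 cKO library. The genotype ratio was 82.7 (22.5 to 689) in rTreg and 11.5 (3.63 to 58.2) in aTreg cells.

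Gm42031 was the one of the 4 genes found in Foxp1 cKO cells that had a higher mean there in aTreg than in rTreg cells. WT counts were 1 and 1 in rTreg and 1 and 0 in aTreg libraries. Foxp1 cKO counts were 113 and 56 in rTreg libraries, 11.01 ± 9.86 CPM (n = 2), and 270 and 108 in aTreg libraries, 15.2 ± 10.5 CPM. Its replicates disagreed more than those of the other genes found in Foxp1 cKO cells, since replicate 1 had 4.45 times the CPM of replicate 2 in rTreg and 2.91 times in aTreg cells. The ratio over WT was 99.1 (27.0 to 825) in rTreg and 361 (64.5 to 14315) in aTreg cells.

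Slc41a2 had the lowest counts of the genes found in Foxp1 cKO cells. Both WT rTreg libraries were at 0, against 15 and 23 counts in Foxp1 cKO rTreg libraries, 2.02 ± 0.514 CPM (n = 2). In aTreg cells WT libraries had 0 and 2 counts and Foxp1 cKO libraries 12 and 13, 0.969 ± 0.0503 CPM. Against the floor of 3 counts it was 14.8-fold higher in Foxp1 cKO rTreg cells, and it was 12.0-fold higher (2.98 to 104) in aTreg cells. The groups did not overlap, and no WT library had more than 2 counts.

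Of the genes found in WT cells, Col6a4 had the higher counts. WT rTreg libraries had 57 and 156 counts, 8.74 ± 4.95 CPM (n = 2), and Foxp1 cKO rTreg libraries 1 and 0. WT aTreg libraries had 34 and 118 counts, 5.64 ± 2.71 CPM, and Foxp1 cKO aTreg libraries 0 and 1. In both subsets replicate 2 was higher than replicate 1 in CPM, 2.34 times in rTreg and 2.03 times in aTreg cells, and both were far above the Foxp1 cKO libraries. The ratio of WT over Foxp1 cKO was 182 (32.3 to 7209) in rTreg and 159 (28.1 to 6319) in aTreg cells.

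Ccnb1ip1 was at 0 counts in both Foxp1 cKO rTreg libraries, against 15 and 46 in WT rTreg libraries, 2.49 ± 1.58 CPM (n = 2). In aTreg cells WT libraries had 14 and 55 counts, 2.53 ± 1.41 CPM, and Foxp1 cKO libraries 2 and 0. As for Col6a4, WT replicate 2 was the higher one, 2.62 times in rTreg and 2.30 times in aTreg cells. WT cells had 17.3-fold more in rTreg cells against the floor of 3 counts, and 36.1-fold more (9.62 to 304) in aTreg cells. The libraries numbered 1 and 2 differ in Xist, and the part of that difference in the replicate spread of Gm42031, Col6a4 and Ccnb1ip1 was not tested.

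**Figure D1:**
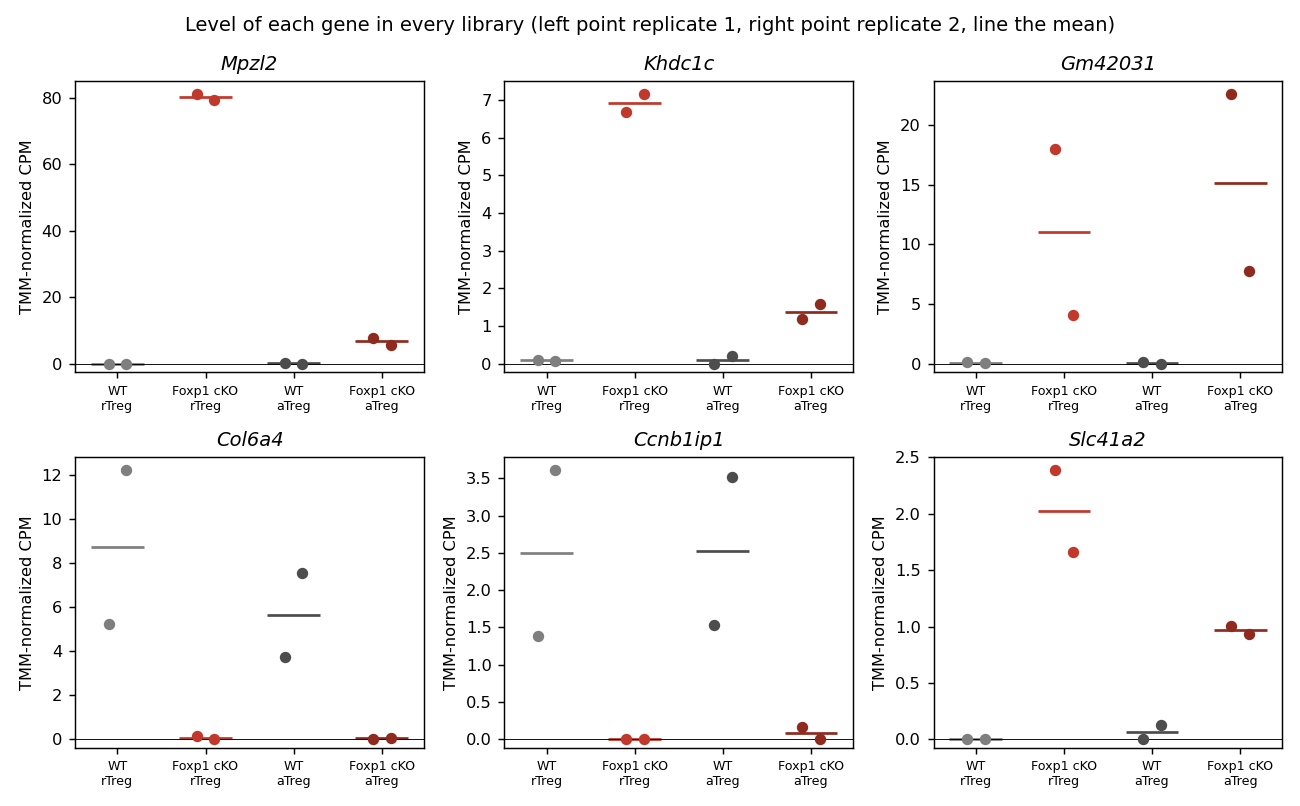
TMM-normalized CPM (vertical axis, from 0, a scale of its own in each panel) of the 6 genes in the 4 groups (horizontal axis); points are libraries and lines are group means. The Foxp1 cKO libraries of Mpzl2 stand near 80 CPM in rTreg and below 8 CPM in aTreg cells, and the silent genotype of every gene lies at or close to 0.

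Per length, the 6 transcripts were of low to middle abundance. In FPKM (counts scaled to exon length and library size, as deposited), Mpzl2 had 11.2 in Foxp1 cKO rTreg cells, above 65.0% of the 14540 tested genes, whose median there was 5.83. Gm42031 followed with 5.74 and Khdc1c with 3.46. Mpzl2 and Khdc1c lay apart by more than their replicate spread, while the range of Gm42031 covered the level of Khdc1c. Slc41a2 was lowest at 0.369. In WT rTreg cells Ccnb1ip1 had 1.63 and Col6a4 1.01 FPKM, with replicate ranges that overlapped. In aTreg cells the order changed: Gm42031 led at 8.21, Mpzl2 had 0.977, Khdc1c 0.710 and Slc41a2 0.183 in Foxp1 cKO cells, and Mpzl2 and Khdc1c differed there by little more than their spread. The length behind the FPKM of Ccnb1ip1 was 1508 bases, against 1883 in GENCODE M21, so its FPKM rests on another gene model.

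**Figure D2:**
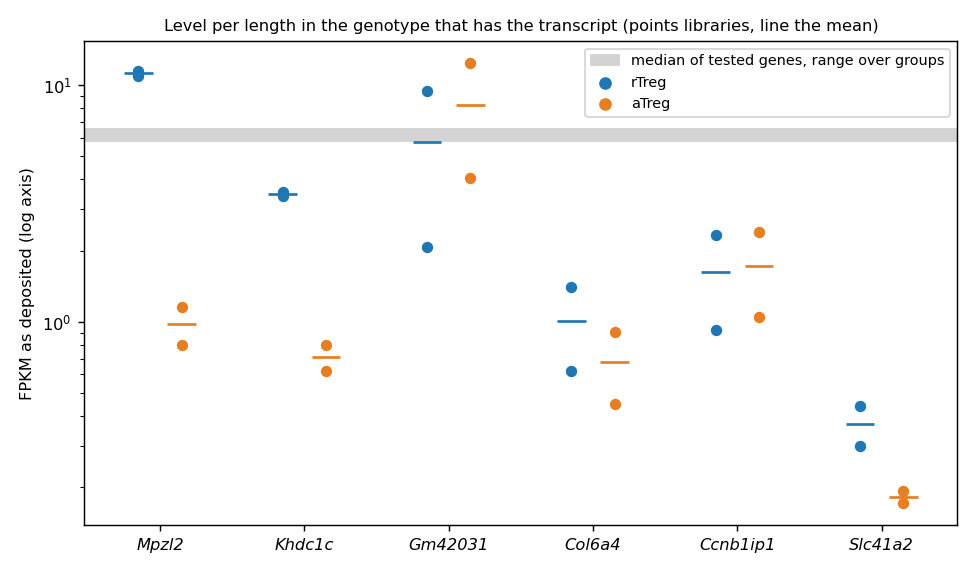
FPKM as deposited (vertical log axis) of each gene in the genotype that has its transcript, in rTreg (blue) and aTreg (orange) cells; points are libraries, short lines the means, and the grey band spans the group medians of tested genes from 5.83 to 6.55. Mpzl2 in rTreg cells is above the band in both libraries, while the libraries of Gm42031 fall on both sides of it.

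The genotype difference was tested in the aTreg libraries, whose counts the selection did not require. This test cannot be taken as independent of the selection. Mpo, Arhgap32, Sema3d and Igf2 met the same limits in rTreg libraries, failed them in aTreg libraries, and are not among the 6. With edgeR's quasi-likelihood test and the replicate number as a block, 3 of the 4 genes found in Foxp1 cKO cells were called higher (adjusted p under 0.05 and at least 1.5-fold) and both genes found in WT cells were called lower, against 2.37% of the 14540 tested genes called higher and 1.66% called lower. All 6 genes passed the filter on low counts, each through the groups where it is high, so the count of 5 of 6 describes them and is no measure of support. The adjusted p was 3.26e-04 for Gm42031 (log2 fold change 8.05, SE 0.48), 0.00141 for Mpzl2 (7.01, SE 0.50) and 0.0201 for Khdc1c (3.45, SE 0.62). It was 0.00194 for Col6a4 (−6.89, SE 0.64) and 0.0192 for Ccnb1ip1 (−4.86, SE 0.79). Slc41a2 missed the threshold, with an adjusted p of 0.0547 (3.41, SE 0.80) in edgeR. Every Foxp1 cKO library lay on the stated side of both WT libraries for each of the 6. This describes genes chosen for such a gap, and the share of all tested genes with it was not counted. These fitted fold changes depend on the small count added to genes at 0 and are no bounds.

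Without the replicate block, 2 of the 6 were called, Mpzl2 (adjusted p = 0.0143, edgeR) and Col6a4 (adjusted p = 0.0476). Gm42031 (adjusted p = 0.0577), Khdc1c (0.0918) and Ccnb1ip1 (0.146) then lost their calls in edgeR. Slc41a2 was called with limma-voom (adjusted p = 0.0322) and with edgeR without a filter on low counts (0.00618). Without WT aTreg replicate 2 or without Foxp1 cKO aTreg replicate 2, 3 of the 6 were called, and Khdc1c and Ccnb1ip1 were the ones lost.

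**Figure D3:**
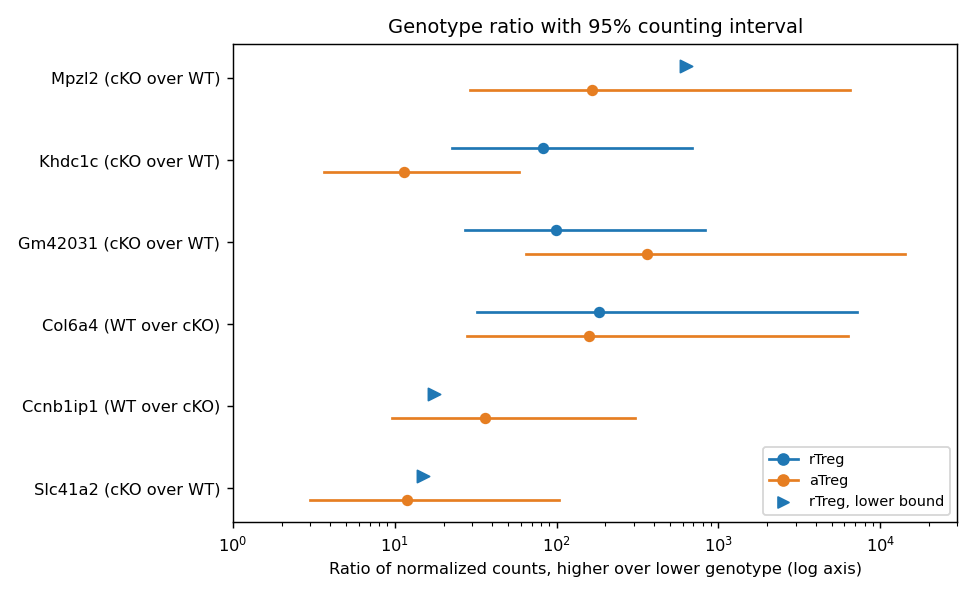
Ratio of summed, normalized counts of the genotype with more over the other (horizontal log axis) for each gene, in rTreg (blue) and aTreg (orange) cells. Points carry 95% counting intervals. Arrowheads, named lower bound in the legend, are ratios to a floor of 3 counts for genes at 0 in both rTreg libraries of one genotype. They leave out the counting error of the other genotype. The intervals span more than 10-fold because 1 to 3 counts stand on the silent side.

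The levels in rTreg and aTreg cells were set side by side in the genotype that has each transcript, as a description without a test, because the rTreg values of this comparison chose the genes. In Foxp1 cKO cells Mpzl2 was 12.0-fold lower in aTreg than in rTreg cells (log2 fold change −3.59, SE 0.17), at 6.73 against 80.1 CPM. Khdc1c was 4.97-fold lower (−2.31, SE 0.34). For these genes both Foxp1 cKO aTreg libraries lay below both rTreg libraries, and the same held for Slc41a2 (−1.01, SE 0.46). Gm42031 had a log2 fold change of 0.60 (SE 0.22), with libraries of the subsets that overlapped. In bulk RNA, fewer cells with a transcript and less of it per cell cannot be told apart.

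In WT cells the log2 fold change of aTreg over rTreg was −0.61 (SE 0.29) for Col6a4 and 0.03 (SE 0.45) for Ccnb1ip1, and the libraries of the subsets overlapped for both genes. The sign for Ccnb1ip1 turned on leaving out WT rTreg replicate 1 (−0.14) or WT aTreg replicate 2 (−0.05).

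The limits that the 6 genes set, at most 1 count in both rTreg libraries of one genotype and at least 15 in both of the other, held for 10 genes of the table (0.0362%), 6 present in Foxp1 cKO and 4 in WT cells. The 4 that are not among the 6 were Mpo (0 and 0 in WT, 25 and 36 in Foxp1 cKO), Arhgap32 (1 and 1 against 40 and 104), Sema3d (16 and 48 against 0 and 1) and Igf2 (29 and 15 against 0 and 0). In aTreg libraries all 4 had counts in both genotypes. Sema3d there had 16 and 28 counts in WT and 20 and 20 in Foxp1 cKO cells, and Igf2 12 and 19 against 11 and 5. Mpo had 3 and 4 against 68 and 14, and Arhgap32 1 and 3 against 5 and 9.

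The same limits held for 4 genes in aTreg libraries (0.0145%), namely Mpzl2, Gm42031, Col6a4 and Ighg2c, an immunoglobulin constant region. In both subsets together they held for 3 genes, and these were Mpzl2, Gm42031 and Col6a4. Khdc1c, Slc41a2 and Ccnb1ip1 fell just outside in aTreg cells, through 2 or 3 counts on the silent side or 12 to 14 on the other. With limits of at most 3 and at least 10 counts, 24 genes present in Foxp1 cKO and 15 present in WT cells passed in rTreg libraries. In aTreg libraries these were 18 and 10, each of 27594 genes. In both subsets 7 genes passed, the 6 and Gpr161 (2 and 0 against 10 and 10 in rTreg, 3 and 2 against 10 and 12 in aTreg cells). The first limit of 15 counts was set by Slc41a2 and Ccnb1ip1 themselves, each with 15 counts in 1 rTreg library.

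Markers of other cells were read beside these values. The granulocyte list, Mpo, Elane, S100a8, S100a9 and Ly6g, summed to 0 to 0.368 CPM in WT rTreg and 5.19 to 11.8 CPM in Foxp1 cKO rTreg libraries, with 3 of 5 genes (Mpo, Elane and Ly6g) at 0 in the former. In aTreg cells it summed to 1.92 to 2.63 CPM in WT and 2.87 to 25.4 CPM in Foxp1 cKO libraries. The 3 plasma cell markers in the table, mostly Jchain, summed to 0.471 to 2.39 CPM in WT rTreg and 5.34 to 8.75 CPM in Foxp1 cKO rTreg libraries. In aTreg libraries they summed to 2.88 to 3.29 CPM in WT and 3.66 to 12.8 CPM in Foxp1 cKO cells. Sdc1 among them went the other way in rTreg cells, with 2 and 1 counts in WT and 1 and 0 in Foxp1 cKO libraries. The part of such cells in the counts of Mpzl2, Khdc1c, Gm42031 and Slc41a2 was not tested.

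Markers of the tissues these genes are best known from were low in rTreg cells of both genotypes. The 4 epithelial markers in the table, mostly Epcam, summed to 1.88 to 3.22 CPM in WT rTreg and 2.52 to 2.55 CPM in Foxp1 cKO rTreg libraries, with Krt8 at 0 in Foxp1 cKO cells. In aTreg libraries they summed to 16.3 to 28.2 CPM in WT and 40.4 to 41.0 CPM in Foxp1 cKO cells. The 5 fibroblast markers, which bear on Col6a4, summed to 0.392 to 0.460 CPM in WT rTreg and 0.216 to 0.477 CPM in Foxp1 cKO rTreg libraries, with Col3a1 and Pdgfra at 0, and to 4.93 to 7.04 and 4.69 to 5.74 CPM in aTreg libraries. The 3 oocyte and germ cell markers in the table, which bear on Khdc1c and Ccnb1ip1, summed to 0.335 to 0.955 CPM over all libraries.

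Relatives of the 6 genes were counted by family in the same fit. Of the 5 tested genes of the Mpzl and immunoglobulin junction list, none was called in either subset by edgeR, limma-voom or DESeq2, and 1 had an unadjusted p under 0.05 in each. Mpzl3, a paralog next to Mpzl2, had 281 and 284 counts in WT and 221 and 378 in Foxp1 cKO rTreg libraries (log2 fold change 0.36, SE 0.10, adjusted p = 0.0588, edgeR). Unlike Mpzl2, it had counts in every library.

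Of the Khdc1 and KH-domain oocyte list, 2 genes were tested and Khdc1a was called higher in Foxp1 cKO rTreg cells, where 2.90% of all tested genes were. It had 79 and 128 counts in WT and 514 and 876 in Foxp1 cKO rTreg libraries (log2 fold change 3.04, SE 0.26, adjusted p = 8.87e-04, edgeR). In aTreg libraries it had 31 and 89 counts in WT and 121 and 94 in Foxp1 cKO (0.81, SE 0.32, adjusted p = 0.177, edgeR). The pseudogene Gm16329, between Khdc1a and Khdc1c, had 12 and 18 counts against 62 and 114 in rTreg cells (2.81, SE 0.28, adjusted p = 0.00164, edgeR) and 2 and 5 against 6 and 9 in aTreg cells (1.01, SE 0.52, adjusted p = 0.324). Khdc1a and Gm16329 had counts in WT rTreg libraries, while Khdc1c had 1 in each. The aligned transcripts of Khdc1a and Khdc1c differ at 36 bases, and reads in the stretches between cannot be told apart. How such reads were counted is not stated, so the counts of the 2 genes may not be separate measurements. The sequence of Gm16329 was not compared with theirs. In aTreg cells no gene of the list was called by edgeR, limma-voom or DESeq2, though 2 had an unadjusted p under 0.05.

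**Figure D4:**
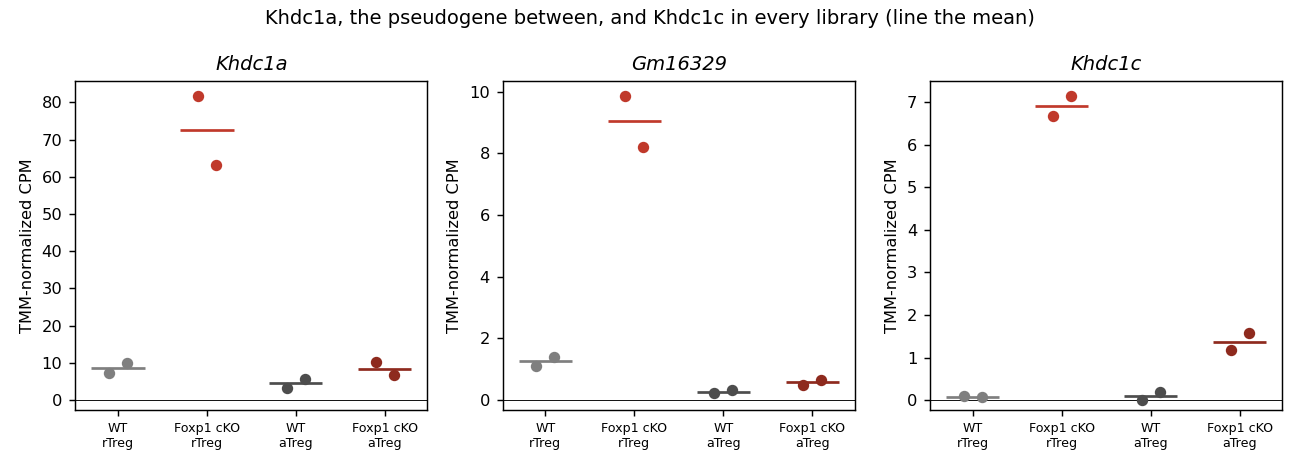
TMM-normalized CPM (vertical axis, from 0, own scale per panel) of Khdc1a, Gm16329 and Khdc1c in the 4 groups; points are libraries and lines are group means. Foxp1 cKO rTreg libraries are highest in all 3 panels, and Khdc1c is the one close to 0 in both WT groups.

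The 4 tested genes of the collagen VI list held no call in rTreg cells by edgeR, limma-voom or DESeq2, nor an unadjusted p under 0.05. Col6a1, Col6a2, Col6a5 and Col6a6 had at most 3 counts in any library, so Col6a4 was the one collagen VI chain with more among those counted. Col6a3, also on the list, had no entry under that name among the genes counted, so its level is unknown. In aTreg cells Itgb1, an integrin chain that binds matrix, was called higher in Foxp1 cKO cells (0.91, SE 0.14, adjusted p = 0.0122, edgeR).

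Of 14 tested magnesium transport genes, none was called in rTreg cells by edgeR, limma-voom or DESeq2, and 3 had an unadjusted p under 0.05. In aTreg cells Nipal1 was called lower in Foxp1 cKO cells (−1.07, SE 0.20, adjusted p = 0.0214, edgeR). Slc41a1, the paralog of Slc41a2, had 911 and 1069 counts in WT and 395 and 951 in Foxp1 cKO rTreg libraries (−0.35, SE 0.12, adjusted p = 0.0952, edgeR).

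Of the 10 tested genes of the meiotic crossover and B-type cyclin list, 4 were called higher and 1 lower in Foxp1 cKO rTreg cells, where 2.90% and 2.70% of all tested genes were, and the same numbers were called in aTreg cells. Limma-voom called 4 of the 10 in each subset, and DESeq2 called 4 in rTreg and 2 in aTreg cells. The largest increases in rTreg cells were those of the mitotic genes Ccnb1 (2.87, SE 0.51, adjusted p = 0.0133, edgeR) and Ccnb2 (2.42, SE 0.35, adjusted p = 0.00637), which encode the B-type cyclins. Cdk1 and Spo11, the meiotic break-forming enzyme, were the other genes called higher, opposite in direction to Ccnb1ip1. Sycp1, a protein of the synaptonemal complex, had 76 and 0 counts in WT rTreg and 72 and 0 in WT aTreg libraries, so its call as lower (adjusted p = 0.0411 in rTreg and 0.0375 in aTreg cells, edgeR) rests on WT replicate 1 alone.

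Neighbouring genes were counted to see whether the difference extended beyond the 6. Of the 60 nearest tested genes, 10 around each, 5 were called higher in Foxp1 cKO rTreg cells and 1 in aTreg cells, and none lower, where 2.90% and 2.37% of all tested genes were called higher. Besides Khdc1a and Gm16329 these were Jaml, 25.2 kb after Mpzl2 (0.98, SE 0.17, adjusted p = 0.0118, edgeR), Rpl29 near Col6a4 (0.68, adjusted p = 0.0328) and Gm26782 near Ccnb1ip1. Gm26782, an antisense RNA 62.6 kb away, was called in both subsets (1.99, adjusted p = 0.0450 in rTreg and 2.39, adjusted p = 0.0310 in aTreg cells, edgeR), in the direction opposite to Ccnb1ip1. No gene among the 10 around Gm42031 or the 10 around Slc41a2 was called in either subset.

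Of the nearest tested genes on each side, Gm16329 was the one called, and all had counts in both genotypes. Ttc5, 3729 bases before Ccnb1ip1, had 775 and 917 counts in WT and 477 and 988 in Foxp1 cKO rTreg libraries (0.04, SE 0.07, adjusted p = 0.788, edgeR). Man2b1, 27.6 kb from Gm42031, had a log2 fold change of 0.15 (SE 0.07, adjusted p = 0.199) and D10Wsu102e, 22.3 kb from Slc41a2, of −0.07 (SE 0.08, adjusted p = 0.603, edgeR) in rTreg cells. Rpph1, which overlaps Ccnb1ip1 on the same strand, had 10 and 13 counts against 7 and 11 in rTreg libraries. Gm48840 overlaps Mpzl2 on the other strand, and since the strand setting of the counting is not given in the sources used here, reads in such overlaps cannot be told apart.

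**Figure D5:**
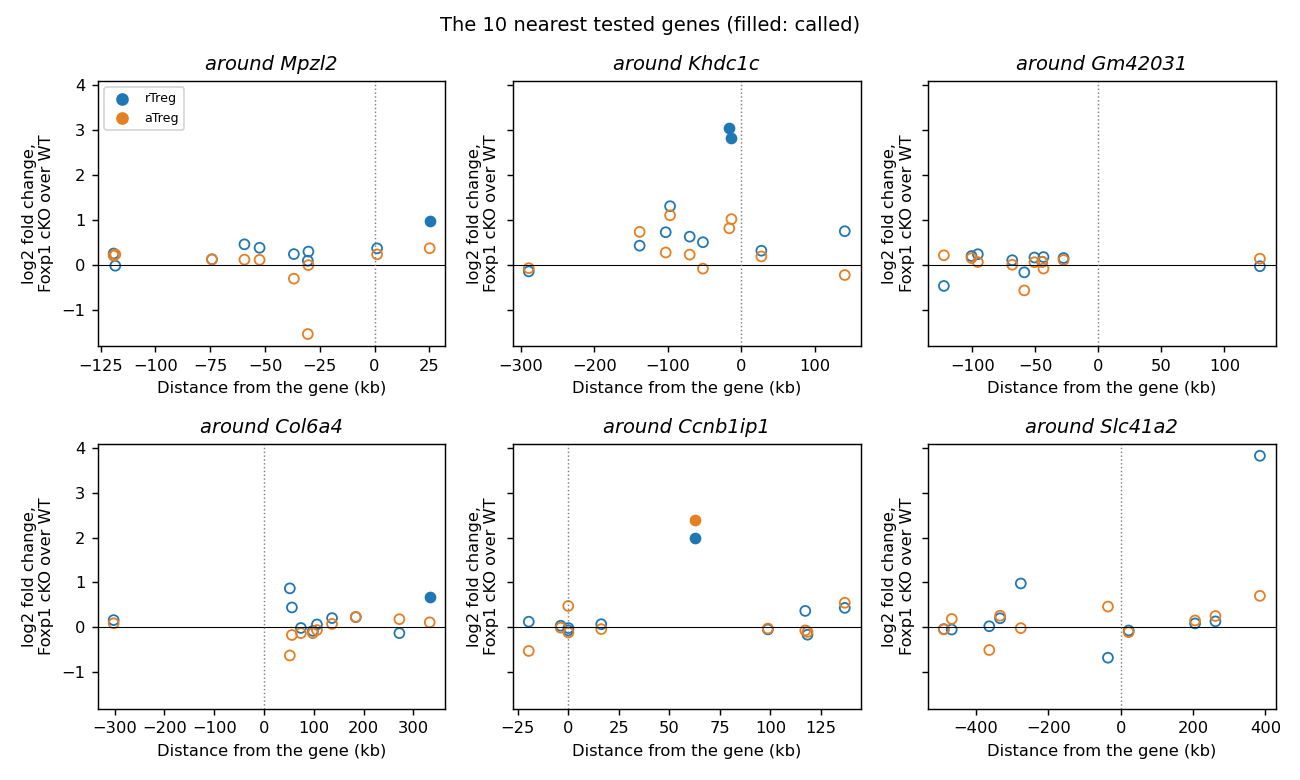
Log2 fold change of Foxp1 cKO over WT (vertical axis) for the 10 nearest tested genes around each of the 6, against the distance in kb (horizontal axis, 0 is the gene itself), in rTreg (blue) and aTreg (orange) cells; filled points were called. Beside Khdc1c, Khdc1a (3.04) and Gm16329 (2.81) stand out in rTreg cells, and 1500009L16Rik near Slc41a2 (3.82, at most 2 counts in any rTreg library) was not called.

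Over the 8 libraries, the genes whose log2 CPM followed each of the 6 most closely were listed by Pearson's r, as a description, since all libraries share the same genotype groups. For Mpzl2 they were Tkt (0.995), a pentose phosphate enzyme, Pls1 (0.992) and Ptprf (0.992), a receptor phosphatase. Khdc1c was followed by Qpct (0.982), Ptprf (0.982) and Mpzl2 itself (0.978), and Slc41a2 by Qpct (0.990), Cs (0.983) and Wasl (0.979). Gm42031 was followed by Rab4a (0.990), Prelid1 (0.980) and Ano10 (0.980). Col6a4 was followed by Cyth3 (0.982), Stk38l (0.973) and Thra (0.969), and Ccnb1ip1 by Homer1 (0.980), Acer2 (0.972) and Trav4d-2 (0.970). Qpct, which follows both Khdc1c and Slc41a2, had 5 and 7 counts in WT and 261 and 603 in Foxp1 cKO rTreg libraries, and 7 and 28 against 114 and 166 in aTreg libraries. Pls1 had 2 and 2 counts against 56 and 142 in rTreg cells and 4 and 6 against 30 and 36 in aTreg cells.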

How the data were processed

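The authors sequenced 8 libraries, made from total RNA with the NEBNext Ultra kit, and deposited whole-number read counts and FPKM values per gene. According to the study's methods, reads were checked with FastQC, trimmed with trim_galore, freed of duplicates with Picard and counted with htseq-count. The submitters' processing notes name HISAT2 2.0.5, HTSeq and mm10. The FPKM values follow from the counts and 1 length per gene. Removal of duplicates can lower the counts of abundant genes.

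From the deposited counts, genes passing filterByExpr (minimum count 10) were tested: 14540 of 27594, with 13054 left out. TMM normalization and edgeR 4.0.16 (R 4.3.3) quasi-likelihood tests were applied in one fit of all libraries, with the replicate number as a block, since the study analysed paired samples. Deviations of same-numbered libraries correlated at 0.462 between genotypes in rTreg and 0.380 in aTreg cells. Whether the 2 rounds of sequencing are the replicate numbers is not stated. Benjamini-Hochberg adjustment covered all tested genes. Calls needed an adjusted p under 0.05 plus a change of 1.5-fold or more. Tests between subsets were run but are not given as results for the 6 genes, since their rTreg counts chose them. Scripts were tested on simulated data. Alternatives used limma 3.58.1 and DESeq2 1.42.0.

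The 6 genes and all lists were chosen with earlier results of these data known. Named besides them were genes meeting their count limits, up to 3 called genes per list, neighbours, the 3 genes of highest correlation, and Foxp1; Mpzl3, Slc41a1, the other collagen VI chains, Xist, the neighbours that were called and 1500009L16Rik were added after their values were seen. Of the identifiers, 27479 were in GENCODE M21, and 4 of the 6 genes in the RefSeq promoter table. Ratios have exact 95% counting intervals (scipy 1.17.1). Khdc1 sequences were aligned with Biopython 1.88.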

Additional observations from a re-analysis of the deposited data

How the results depend on the processing

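Across 17 alternatives, each of the 6 genes kept its direction between genotypes in aTreg cells. Without the replicate block, 2 of the 6 were called rather than 5, and the genes called fell from 344 higher and 242 lower to 43 and 34 in aTreg cells, and from 421 and 393 to 159 and 107 in rTreg cells. The log2 fold changes between subsets, given without a test, kept their sign without the block. On log2 FPKM with a pseudocount of 1, limma called 0 of the 6 in aTreg cells (0 also without the filter on low values), and with 0.1 it called 2; DESeq2, limma-voom and edgeR with DESeq2's size factors called at least 5. The pseudocount shrinks changes of low genes by construction. The calls on log2 FPKM plus 1 were 52 higher and 38 lower in aTreg and 146 and 148 in rTreg cells, with 0.1 they were 37 and 33, and 194 and 198, and with plus 1 and no filter 13 and 6, and 67 and 61. Without a filter on low counts edgeR called 583 higher and 452 lower in aTreg cells and 607 lower in rTreg cells. The 4 aTreg libraries alone gave 216 higher and 133 lower, and 4 of the 6 were called. Khdc1c lost its call there (adjusted p = 0.0712, edgeR), and Ccnb1ip1 stayed close to the threshold (adjusted p = 0.0454, edgeR). Leaving out 1 library in turn gave 3 to 5 of the 6, 72 to 315 higher and 45 to 229 lower genes in aTreg cells, and 147 to 457 higher and 67 to 404 lower in rTreg cells; a lone library is then assumed to vary like the other groups. The log2 fold change of Ccnb1ip1 between WT subsets ranged from −0.14 to 0.38, and turned negative without WT rTreg replicate 1 (−0.14) or WT aTreg replicate 2 (−0.05). Apart from the fits whose construction is named, the cause of these differences was not tested. With 2 libraries a group and 1 to 3 counts on the silent side, the size of the ratios is limited by depth.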
